A study of Mus musculus with 4 samples.

Results

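The Slc25 genes encode the mitochondrial carrier family, and 44 of them, out of 18193 genes named on the arrays, were followed through osteoclast formation in culture. A gene was a member when its symbol in the array annotation began with Slc25a, and it was represented by the probe set, among those annotated with that symbol alone, whose log2 intensity, averaged over the 4 arrays, was highest. Slc25a21, Slc25a43 and Slc25a52 had no such probe set and were not analysed here. Carriers of this family sit mostly in the inner mitochondrial membrane and exchange nucleotides, phosphate, carboxylates, amino acids and cofactors between the matrix and the cytosol. They let ATP made in the matrix leave it and let the substrates of the respiratory chain enter. Osteoclasts, the multinucleated cells that resorb bone, are known for their many mitochondria, and the formation of osteoclasts from macrophages is known to involve mitochondrial biogenesis.

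All 4 cultures started from femur and tibia marrow of C57BL/6 mice aged 8 to 10 weeks. The first stage, BMM, consisted of bone marrow macrophages grown for 3 days with the macrophage growth factor M-CSF at 100 ng/ml and no RANKL. For the second, pOC, BMM received M-CSF and the osteoclast-inducing cytokine RANKL, each at 100 ng/ml, for 2 days and were harvested as mononuclear pre-osteoclasts positive for the osteoclast enzyme TRAP. After another 2 days of M-CSF and RANKL the cells were multinucleated and TRAP-positive, on plastic dishes (mOCp) or on slices of dentin that they resorb (mOCd). RANKL and time in culture changed together and cannot be told apart. Each stage was 1 array of total RNA, with no replicate, and whether the RNA came from 1 animal or a pool is not given in the sources used here. No test between stages therefore exists, and every difference below is a difference between these arrays.

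The 10 osteoclast marker genes examined, among them Acp5, Ctsk and Calcr, summed to 256.5 intensity units in BMM and 31902 in pOC, then 49318 in mOCp and 49835 in mOCd. The macrophage list, with 10 of 10 genes above the floor (the median of each array, given next) in BMM, pOC and mOCp and 9 in mOCd, summed to 29059 in BMM and 11716 in pOC, then 20158 in mOCp and 16662 in mOCd. Csf1r and Cd68, at 4899 and 5096 units in pOC, made up most of this sum in pOC, mOCp and mOCd. Neither fell 2-fold against BMM. The other 8 were lower in pOC than in BMM by at least 2-fold, beside 13.1% of all genes. In mOCp and mOCd against BMM 7 and 8 were lower, beside 19.4% and 20.3%. Summed neutrophil markers were 323.5, 842, 1886 and 969 in BMM, pOC, mOCp and mOCd. Erythroid markers summed to at most 62.6 and lymphoid markers to at most 50.7, while stromal markers reached 303 in pOC, mostly through Dcn at 196. In the 4 cultures 6 or 7 of 8 neutrophil markers, 1 or 2 of 5 erythroid, at most 1 of 6 lymphoid and 2 to 4 of 7 stromal markers were above the floor, and Col1a1 was under it in all 4. In RNA from a whole culture, fewer cells of a type and less RNA per cell cannot be told apart.

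Intensities are linear and were scaled by the authors to one trimmed mean per array. On each array the median of the non-control probe sets, 12.7 in BMM and 14.5 in pOC, then 14.8 in mOCp and 15.8 in mOCd, was taken as a floor, and lower values were set to it before a ratio was formed. A difference was counted, as higher or lower, from a ratio of 2-fold upward, provided that the brighter of both values reached the 75th percentile of its array, 77.8 to 87.0 units. Genes whose brighter value did so are called eligible for that comparison. A ratio with 1 value at the floor is a bound. Error could be judged only from how far probe sets of 1 gene disagreed, an SD of 0.39 to 0.50 in log2 ratio, or 1.31-fold to 1.42-fold, over 4458 to 4663 genes per comparison. This SD does not hold the variation from one animal, culture or array to another.

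Of the 44 members, 37 were above the floor on at least 1 array (84.1%, against 71.2% of all genes) and 33 on all 4 (75% against 49.8%). The 7 members at the floor throughout were Slc25a2, Slc25a18, Slc25a27, Slc25a31, Slc25a41, Slc25a48 and Slc25a54. Among these, Slc25a31 encodes the ADP/ATP carrier known from testis, and Slc25a18 a glutamate carrier related to Slc25a22. The number of members above the 75th percentile was 22 to 24 per array, and 20 members reached it on all 4.

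Few carriers were counted in any one step. In pOC against BMM, 2 of 25 eligible members were higher, Slc25a4 and Slc25a39, while 11.1% of all eligible genes were, and 1 was lower, Slc25a45, while 13.1% of all were. In mOCp against pOC, 1 of 25 was higher, Slc25a45 (8.78% of all genes), and 2 were lower, Slc25a32 and Slc25a37 (11.4% of all genes). In mOCd against pOC, 0 of 26 were higher (10.8% of all genes) and the same 2 genes were lower (12.2% of all genes). These counts lay below the shares of all genes, and they do not set the family apart from other genes.

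Set against BMM, the mature cultures showed more carriers past 2-fold than pOC did, and the shares of all genes were larger too. This pair of comparisons was added after values had been seen. In mOCp against BMM, 5 of 26 eligible members were higher, Slc25a3, Slc25a4, Slc25a5, Slc25a11 and Slc25a39, which is 19.2% beside 16.8% of all genes. The 3 lower ones were Slc25a22, Slc25a24 and Slc25a37, which is 11.5% beside 19.4%. In mOCd against BMM the same 5 and Slc25a46 were higher (23.1% beside 18.8%), and Slc25a22, Slc25a32 and Slc25a37 were lower (11.5% beside 20.3%). Such counts do not set the family apart from other genes either. Comparisons that share an array share its error, so the lists are not independent of one another. Over the 6 comparisons 25 ratios of 11 members were counted. All 25 kept their sign when the arrays were scaled to their medians, to equal quantiles or to spiked-in controls. Median and spike-in scaling shifted all ratios of a comparison alike, by less than 2-fold, so no counted ratio could change sign under them. Of the 25 ratios, 17 stayed at 2-fold or more under all 3 scalings. The ratios of Slc25a3 and Slc25a5 to BMM stayed under 2-fold in mOCp and mOCd with each of the 3, and those of Slc25a4 and Slc25a39 stayed above. The other calls lost under at least 1 scaling were Slc25a11 and Slc25a46 in mOCd against BMM and Slc25a37 and Slc25a45 in mOCp against pOC.

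**Figure D1:**
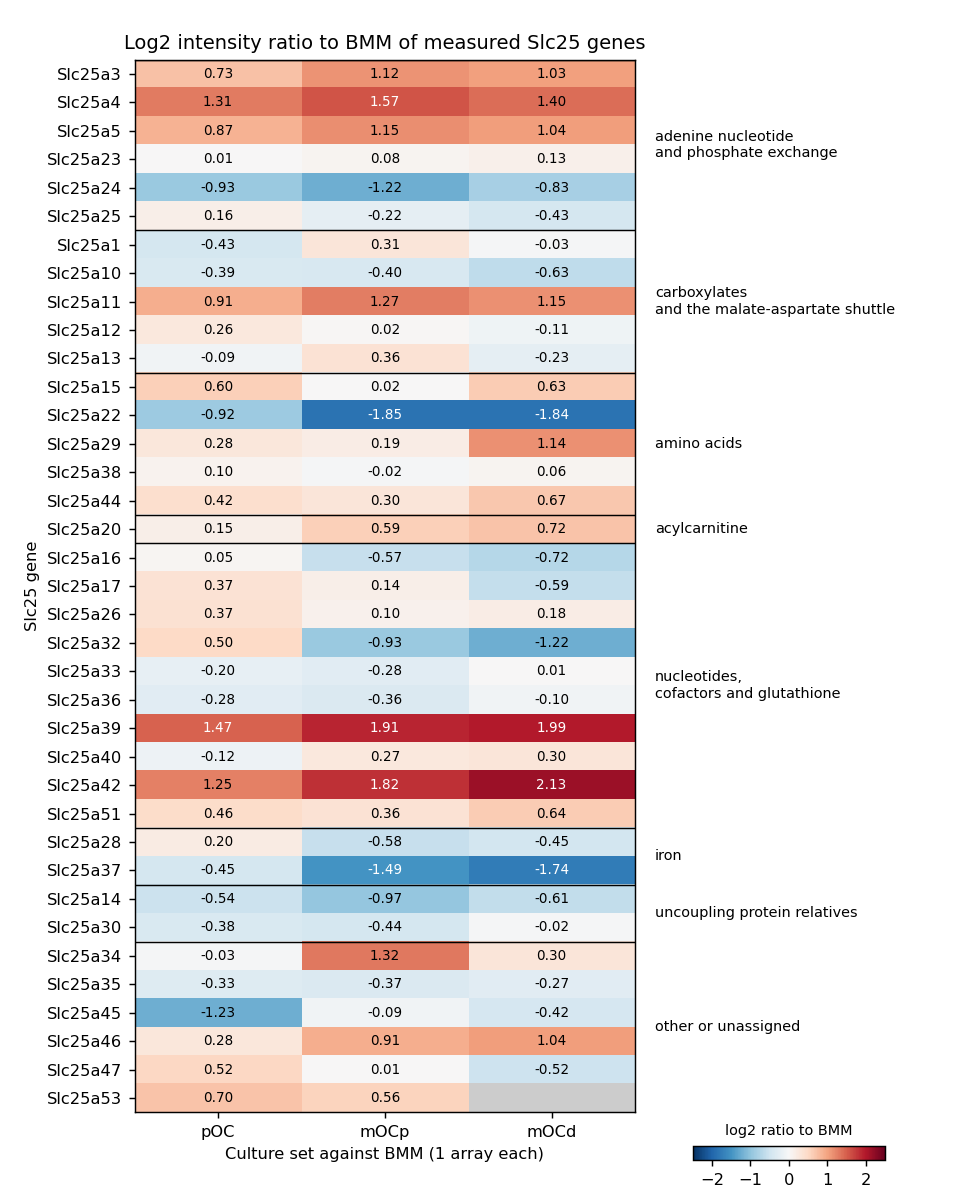
Each row is 1 of the 37 Slc25 genes above the floor on at least 1 array, in groups by the role of the carrier, and each cell gives the log2 ratio of the intensity in pOC, mOCp or mOCd to that in BMM (1 array each, no error bars possible). Red is higher and blue lower than BMM, grey has both values at the floor, and a ratio with 1 value at the floor is a bound. Slc25a39 reads 1.47, 1.91 and 1.99 across the row and Slc25a22 reads −0.92, −1.85 and −1.84.

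The carriers that serve ATP synthesis directly were higher in the mature osteoclast cultures than in BMM. Slc25a4 and Slc25a5 encode the ADP/ATP carriers Ant1 and Ant2, which bring ADP into the matrix and export ATP. Slc25a4 had 1471 units in BMM and 3640.5 in pOC, then 4357 in mOCp and 3879 in mOCd. It was 2.47-fold higher in pOC than in BMM, 2.96-fold in mOCp and 2.64-fold in mOCd. Most of the difference from BMM was thus present in pOC, and the 3 RANKL cultures differed from each other by log2 ratios of at most 0.26.

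Slc25a5 had 3344 units in BMM and 6124 in pOC, then 7446 in mOCp and 6880 in mOCd. Its ratio to BMM was 1.83-fold in pOC, short of 2-fold, and it rose 2.23-fold in mOCp and 2.06-fold in mOCd. The log2 ratio of Slc25a4 exceeded that of Slc25a5 by 0.43 in pOC against BMM, less than the SD of 0.55 for a difference between probe sets, so the 2 genes were not separated. The 8 probe sets of Slc25a5 all gave a positive log2 ratio in pOC against BMM, 0.62 to 1.25, and the 3 measured probe sets of Slc25a4 gave 0.72 to 1.51. All 3 of Slc25a4 carry a name suffix that marks probes shared by several transcripts or related sequences, so signal from a close relative cannot be told apart there. Its unsuffixed probe set was at the floor on all 4 arrays, whereas the unsuffixed one of Slc25a5 gave a log2 ratio of 1.18.

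The promoters of this pair are shown because the 2 genes were higher together. Each stretch is the 250 bases before the transcription start in RefSeq (build GRCm38.p6), read 5′ to 3′ on the strand of the gene, with capitals for any of 4 motifs searched on both strands. The motifs were GCGCATGC for NRF1, TNAAGGTCA for the estrogen-related receptor, CCGGAAG for GABP and other ETS factors, and CACGTG for the E-box, and matches of different motifs could overlap. Slc25a4 lies at chr8:46211063-46211312 on the minus strand and Slc25a5 at chrX:36795347-36795596 on the plus strand.
Slc25a4: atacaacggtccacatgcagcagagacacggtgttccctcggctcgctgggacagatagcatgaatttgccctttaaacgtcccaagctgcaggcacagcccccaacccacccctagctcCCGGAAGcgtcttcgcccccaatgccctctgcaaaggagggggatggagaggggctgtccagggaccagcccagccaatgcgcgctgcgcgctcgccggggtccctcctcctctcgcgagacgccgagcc
Slc25a5: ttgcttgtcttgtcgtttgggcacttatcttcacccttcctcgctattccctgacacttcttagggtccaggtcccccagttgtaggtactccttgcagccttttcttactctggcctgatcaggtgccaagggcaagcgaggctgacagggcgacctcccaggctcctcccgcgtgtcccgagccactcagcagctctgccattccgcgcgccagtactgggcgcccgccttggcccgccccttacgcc
The window of Slc25a4 holds 1 GABP match, starting 130 bases before the start, and that of Slc25a5 holds none of the 4 motifs. RefSeq windows of 300 bases, 250 before and 50 after the start, were found for 34 of the 44 members. A GABP match was in 20.6% of these 34 genes, against 18.9% of the genes above the floor on at least 1 array and 9.93% of all genes with a window. The E-box was in 20.6%, 11.2% and 8.09%, the NRF1 motif in 5.88%, 5.73% and 3.05%, and the estrogen-related receptor motif in 0 of 34, 0.992% and 1.43%. A match is a run of letters and says nothing of binding.

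Slc25a3, the phosphate carrier that supplies the matrix with phosphate for ATP synthesis, had 3369.9 units in BMM and 5605 in pOC, then 7316 in mOCp and 6867 in mOCd. It was 1.66-fold above BMM in pOC and rose 2.17-fold in mOCp and 2.04-fold in mOCd. Its second probe set was dim, at 29.0, 45.1, 18.5 and 46.3 units over the same stages, and in mOCp against BMM it ran the other way, with a log2 ratio of −0.65.

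Among the calcium-regulated ATP-Mg/phosphate carriers, which adjust the adenine nucleotide pool of the matrix, 1 was counted, Slc25a24, and it was lower. Slc25a24 had 1655 units in BMM and 867 in pOC, then 712 in mOCp and 933 in mOCd. It was 1.91-fold lower in pOC than in BMM, fell 2.33-fold in mOCp, and was 1.77-fold lower in mOCd. The second probe set of Slc25a24 was also brightest in BMM, at 335, against 237 in pOC, 180.1 in mOCp and 131 in mOCd. Slc25a25 stayed between 45.8 units in mOCd and 68.7 in pOC, and Slc25a23 was at 14.4 units in BMM and 0.8 in pOC, then 15.2 in mOCp and 12.7 in mOCd, close to the floor. In pOC against BMM the log2 ratio of Slc25a25 exceeded that of Slc25a24 by 1.09, beyond the SD of 0.55 between probe sets.

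**Figure D2:**
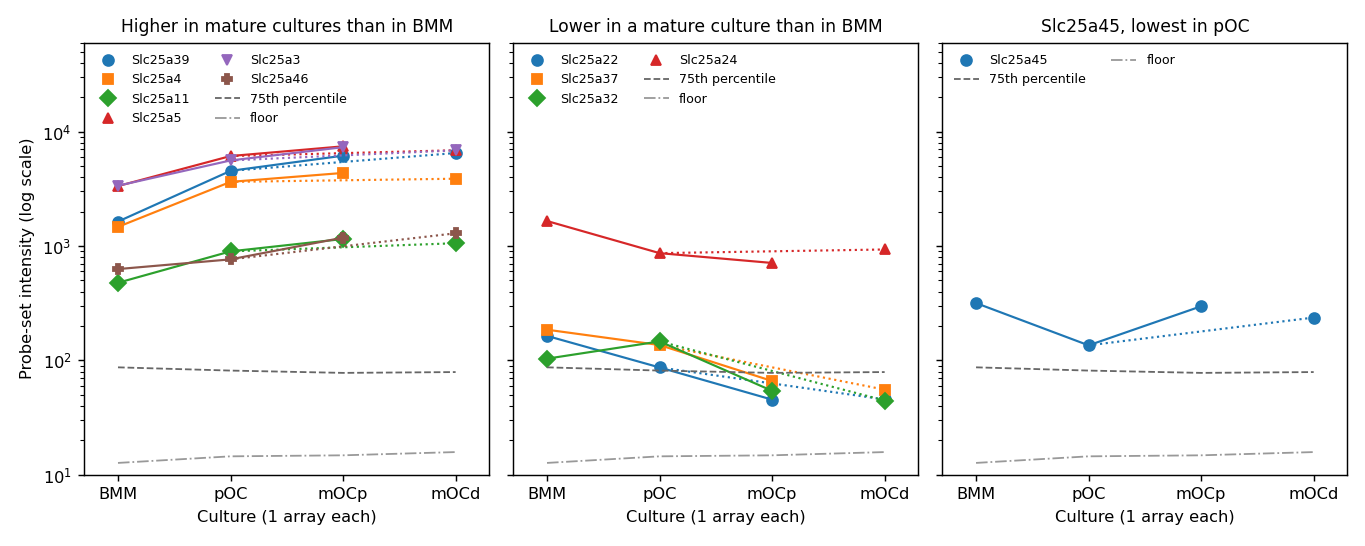
Intensity on a log axis in BMM, pOC, mOCp and mOCd (1 array each) of the 11 Slc25 genes counted higher or lower in at least 1 comparison, with solid lines to plastic, dotted lines to dentin, and the floor and 75th percentile of each array in grey. The genes on the left, such as Slc25a39 at 1638 units in BMM and 6508 in mOCd, are higher in the mature cultures, those in the middle are lower, and Slc25a45 on the right is lowest in pOC at 135.5.

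Among the carboxylate carriers, only the oxoglutarate/malate carrier passed 2-fold in any of the 6 comparisons. Slc25a11, which works with the aspartate/glutamate carriers in the malate-aspartate shuttle that moves reducing equivalents into the matrix, had 477 units in BMM and 899 in pOC, then 1153 in mOCp and 1058 in mOCd. It was 1.88-fold above BMM in pOC and rose 2.41-fold in mOCp and 2.22-fold in mOCd, all on 1 probe set. The call in mOCd ended under median and spike-in scaling, at log2 ratios of 0.83 and 0.96. The aspartate/glutamate carriers of the same shuttle stayed within 1.51-fold between any pair of stages. Slc25a12 (aralar) had 489.8, 587, 498 and 455 units in BMM, pOC, mOCp and mOCd. Slc25a13 (citrin) had 348, 328, 448 and 296 units.

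The citrate carrier Slc25a1, which exports citrate for fatty acid and sterol synthesis, had 262 units in BMM and 194 in pOC, then 324 in mOCp and 256.5 in mOCd. Slc25a10, the dicarboxylate carrier, was at 213 in BMM and 163 in pOC, then 162 in mOCp and 138 in mOCd. Both stayed short of 2-fold in all 6 comparisons. Slc25a20, which brings acylcarnitines into the matrix for fatty acid oxidation, read 301.5 in BMM and 334 in pOC, then 453 in mOCp and 496 in mOCd, and its highest ratio to BMM was 1.65-fold. Its second probe set, not used for the gene, was ordered alike, at 115, 147, 218.5 and 241 units. There the log2 ratio of 1.07 in mOCd against BMM would meet the counting rule.

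Slc25a22, a carrier of glutamate with protons, had 164 units in BMM and 86.8 in pOC, then 45.4 in mOCp and 45.6 in mOCd. It was 1.89-fold lower in pOC than in BMM and fell 3.61-fold in mOCp and 3.59-fold in mOCd, on 1 probe set. Both mature arrays therefore read alike, and they were 1.91-fold and 1.90-fold below pOC, short of 2-fold. Its relative Slc25a18 was at the floor on all 4 arrays.

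The other measured amino acid carriers made no call in any comparison on the probe set used for each gene. Slc25a38, a carrier known to be needed for the glycine used in heme synthesis, varied only between 71.4 units in mOCp and 77.5 in pOC. Slc25a44, known as a carrier of branched-chain amino acids, had 79.3, 106, 97.6 and 126 units in BMM, pOC, mOCp and mOCd. Slc25a15, which exchanges ornithine and citrulline, had 107, 161.5, 108 and 165 units. Its second probe set, not used for the gene, had 46.7, 82.5, 36.8 and 39.2 units. There the log2 ratios to pOC, −1.16 in mOCp and −1.07 in mOCd, would meet the counting rule, so the 2 probe sets of Slc25a15 disagreed. Slc25a29, a carrier of basic amino acids, had 66.1 units in mOCd as its highest value and 29.9 in BMM as its lowest, a 2.21-fold ratio of values too dim to count. The median macrophage marker ratio was −3.80 on the log2 scale in pOC against BMM and −2.54 and −4.36 in mOCp and mOCd against BMM. The part of macrophage RNA in the lower Slc25a22, Slc25a24 and Slc25a37 values was not tested.

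The glutathione carriers gave the widest difference among the pairs of related carriers in which both had a ratio. Slc25a39, known to be required for glutathione uptake by mitochondria, had 1637.5 units in BMM and 4544.5 in pOC, then 6169 in mOCp and 6508 in mOCd. It rose 2.78-fold in pOC, 3.77-fold in mOCp and 3.97-fold in mOCd over BMM. Of the members that were counted higher in any comparison, its ratios to BMM were the largest in pOC, mOCp and mOCd alike. All 4 measured probe sets gave a log2 ratio of 1.47 to 1.78 in pOC against BMM. The fifth, the only one without a suffix, was at the floor on all 4 arrays.

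Slc25a40, a paralog that can take part in the same uptake in human cells, had 73.9 units in BMM and 68.0 in pOC, then 89.2 in mOCp and 91.0 in mOCd. Its log2 ratio in pOC against BMM was −0.12, which lies 1.59 below that of Slc25a39, beyond the SD of 0.55 between probe sets. The same differences were 1.64 in mOCp and 1.69 in mOCd against BMM, where the SDs were 0.65 and 0.71. From pOC onward the 2 genes differed by less than that SD, by 0.05 in mOCp against pOC and by 0.10 in mOCd against pOC. The promoters of this pair are set side by side because the 2 genes differed. Slc25a39 is at chr11:102407518-102407767 on the minus strand and Slc25a40 at chr5:8422588-8422837 on the plus strand (GRCm38.p6).
Slc25a39: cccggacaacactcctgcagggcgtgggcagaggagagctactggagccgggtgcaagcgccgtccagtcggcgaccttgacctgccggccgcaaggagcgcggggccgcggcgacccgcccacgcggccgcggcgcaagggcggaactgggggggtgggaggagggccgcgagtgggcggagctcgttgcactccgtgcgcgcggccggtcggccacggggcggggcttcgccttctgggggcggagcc
Slc25a40: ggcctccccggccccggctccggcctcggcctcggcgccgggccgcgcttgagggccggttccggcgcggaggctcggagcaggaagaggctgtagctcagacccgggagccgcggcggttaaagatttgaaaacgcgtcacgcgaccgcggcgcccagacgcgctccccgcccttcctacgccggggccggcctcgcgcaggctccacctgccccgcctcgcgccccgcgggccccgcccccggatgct
Neither stretch holds any of the 4 motifs. Their GC contents were 77.2% for Slc25a39 and 78% for Slc25a40.

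Slc25a32, known as a carrier of folate and of FAD, had 104 units in BMM and 147 in pOC, then 54.2 in mOCp and 44.6 in mOCd. It fell 2.70-fold in mOCp and 3.29-fold in mOCd against pOC, and 2.32-fold in mOCd against BMM. Its 3 probe sets did not run together, with log2 ratios of −1.44 to 0.28 in mOCp against pOC and −1.72 to −0.39 in mOCd against pOC. With the mean over its probe sets the value was −0.48 in mOCp against pOC, which ends the call, and −1.08 in mOCd against pOC, where the averaged level was too dim to count. In mOCd against BMM the probe sets ran from −1.64 to 0.02 and their mean gave −0.95, which ends that call too.

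Slc25a42, known as a carrier of coenzyme A, had 14.2 units in BMM and 33.8 in pOC, then 50.1 in mOCp and 62.3 in mOCd. Its ratios to BMM, 2.38-fold, 3.53-fold and 4.39-fold, were made of dim values that never reached the 75th percentile of an array, so it was not counted. Slc25a51, which imports NAD, had 337, 463, 433 and 526 units over BMM, pOC, mOCp and mOCd, and its highest ratio to BMM was 1.56-fold in mOCd. Another of its probe sets had 117, 194, 117.5 and 123 units.

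The pyrimidine nucleotide carriers stayed short of 2-fold in all 6 comparisons. Slc25a33 stayed between 73.0 and 89.3 units. Slc25a36 had 306 units in BMM and 252 in pOC, then 239 in mOCp and 286 in mOCd. The difference between their log2 ratios was at most 0.10 in the 6 comparisons, well inside the SDs of 0.55 to 0.71. Slc25a16, tied to coenzyme A, had 172 units in BMM and 178 in pOC, then 116 in mOCp and 105 in mOCd. Slc25a17, a peroxisomal carrier of cofactors, had 142.5, 184, 157 and 94.6 units over the same stages, and was 1.94-fold lower in mOCd than in pOC. Slc25a26, the carrier of the methyl donor S-adenosylmethionine, stayed between 61.2 and 79.2 units. Among members with several probe sets above the floor, all probe sets of a gene had ratios of 1 sign in 15 of 17 members in pOC against BMM, but in 11 of 19 in mOCp against pOC and 10 of 18 in mOCd against pOC.

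**Figure D3:**
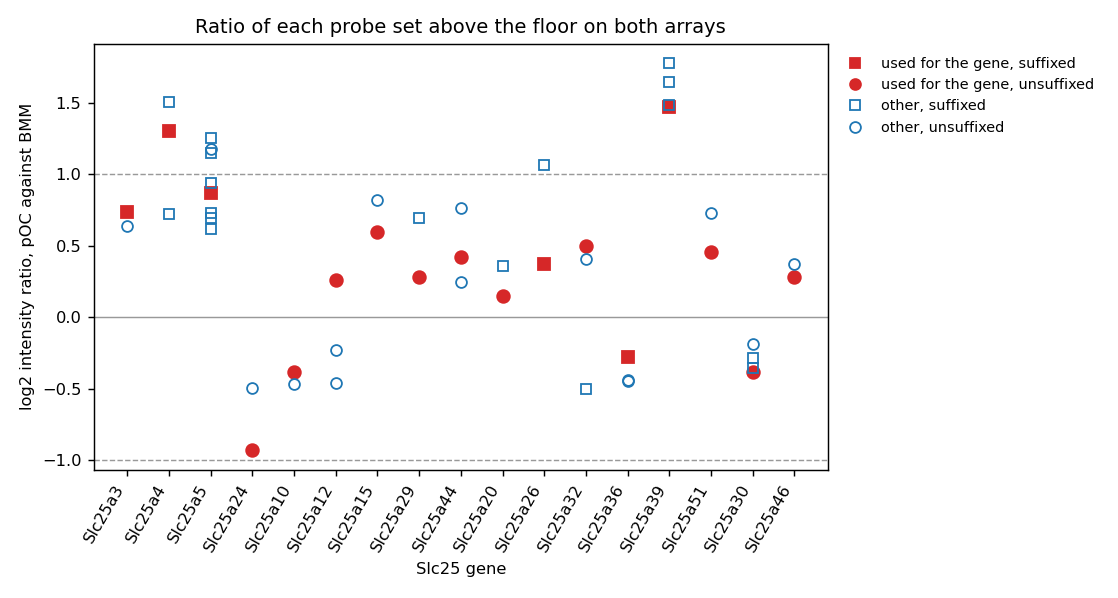
Log2 ratio of pOC to BMM (1 array each) for every probe set above the floor on both arrays, for the 17 Slc25 genes with more than 1 such probe set. Filled red marks the probe set used for the gene, squares mark names with a suffix, and dashed lines mark 2-fold, with Slc25a39 at 1.47 to 1.78 over 4 probe sets and Slc25a32 divided between −0.50 and 0.50.

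Of the 2 iron carriers, Slc25a37 was counted lower in the mature cultures and Slc25a28 was not counted in any comparison. Slc25a37 encodes mitoferrin-1, known for supplying iron to the mitochondria of red cell precursors. It had 186 units in BMM and 136 in pOC, then 66.1 in mOCp and 55.5 in mOCd. In mOCp it was 2.06-fold lower than in pOC and 2.81-fold lower than in BMM, and in mOCd 2.46-fold and 3.34-fold lower. All 4 calls rest on its only probe set, which carries a suffix, so that leaving out suffixed probe sets leaves no value for the gene. Quantile normalization ended the call in mOCp against pOC, at a log2 ratio of −0.95. In pOC it was 1.36-fold lower than in BMM, short of 2-fold. Slc25a28, mitoferrin-2, which serves iron import more widely, had 230.4 units in BMM and 264.5 in pOC, then 154 in mOCp and 169 in mOCd, and its largest ratio was 1.72-fold, lower in mOCp than in pOC. In mOCd against BMM the log2 ratio of Slc25a37 was 1.29 below that of Slc25a28, beyond the SD of 0.71, whereas in mOCp against pOC the gap was 0.26 with an SD of 0.56. Of the 5 erythroid markers measured, Alas2 was at 0.6 to 2.4 units, at the floor throughout, and Slc4a1 was above the floor in BMM alone, at 14.4. Epor was above it in pOC, mOCp and mOCd at 23.5, 19.0 and 16.9 units, Klf1 in pOC and mOCp at 14.9 and 18.7, and Hba-a1 in mOCd at 17.9. Their part in the Slc25a37 values was not tested.

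None of the relatives of the uncoupling proteins was counted in the 6 comparisons. Slc25a30 (Kmcp1) had 337 units in BMM and 259 in pOC, then 249 in mOCp and 332 in mOCd. Slc25a14 (Ucp5) had 42.6 units in BMM and 21.7 to 29.2 in the other cultures. Slc25a27 (Ucp4) was at the floor throughout.

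Slc25a45, whose substrate is left unassigned here, was counted lower in pOC than in BMM and higher in mOCp than in pOC. It had 317 units in BMM and 135.5 in pOC, then 297.5 in mOCp and 237 in mOCd. It fell 2.34-fold in pOC against BMM and was 2.20-fold higher in mOCp and 1.75-fold higher in mOCd than in pOC. Both calls rest on the single pOC array and on 1 probe set, so they are one observation. The higher call in mOCp ended under spike-in scaling, at a log2 ratio of 0.70. Slc25a46, an outer membrane protein known for a part in mitochondrial fission and fusion, had 629 units in BMM and 765 in pOC, then 1185 in mOCp and 1293 in mOCd. Its 2.06-fold ratio in mOCd over BMM was the only one past 2-fold, beside 1.88-fold in mOCp, and its second probe set was ordered alike at 457, 592, 864 and 881 units. This call ended under median scaling, spike-in scaling and the mean over probe sets, at log2 ratios of 0.72, 0.85 and 0.99.

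The remaining members without an assigned role, Slc25a34, Slc25a35, Slc25a47 and Slc25a53, never exceeded 41.7 units.

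No eligible carrier passed 2-fold between dentin and plastic. In mOCd against mOCp, 0 of 23 eligible members were higher and 0 were lower, while 2.2% and 2.55% of all genes were. The median log2 ratio of the 36 members with a ratio was 0.02, against 0.01 over all genes. The largest difference among eligible members was that of Slc25a17, 1.66-fold lower on dentin, at 94.6 units in mOCd and 157 in mOCp. Slc25a15 was 1.53-fold higher in mOCd and Slc25a13 was 1.51-fold lower. The second probe set of Slc25a15 gave a log2 ratio of 0.09, beside 0.61 for the one used. With 1 array per substrate, no size of difference can be called resolved. The SD between probe sets, 1.34-fold here, does not hold the variation from one culture or array to another. Slc25a34 was 2.02-fold lower in mOCd, at 20.6 units in mOCd and 41.7 in mOCp, too dim to count.

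Over the 33 members above the floor on all arrays, 13 were lowest in BMM and 8 were highest there, while 10 were highest in mOCd. Of the members 39.4% were thus lowest in BMM and 24.2% highest there, against 34.1% and 32.0% of all such genes. Highest in mOCd were 30.3% of the members, against 25.2% of all such genes. The median log2 ratio of the members was 0.16 in pOC against BMM, −0.08 in mOCp against pOC and 0.10 in mOCd against pOC, beside 0.09, 0.01 and 0.01 over all genes. In mOCp and mOCd against BMM it was 0.08 and −0.01, beside 0.05 and 0.08. These medians were near 0 and their sign turned under at least 1 other setting in 5 of the 6 comparisons, the exception being mOCp against pOC.

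The Slc25 median lay below that of the respiratory chain in the 5 comparisons other than mOCd against mOCp. The 81 genes of the respiratory chain and ATP synthase had a median log2 ratio of 0.74 in pOC against BMM and of 1.32 and 1.25 in mOCp and mOCd against BMM. Of those eligible, 22 of 71 were higher in pOC than in BMM and 56 of 72 in mOCp than in BMM, beside 11.1% and 16.8% of all genes, with 0 lower in either. Under the other scalings the first count was 12 to 30 and the second 38 to 47. In mOCp against pOC their median was 0.52, and in mOCd against pOC 0.46. The log2 ratios of Slc25a3, Slc25a4, Slc25a5 and Slc25a11 in the mature cultures against BMM, 1.03 to 1.57, were near the respiratory chain median, and most other carriers were below it. This is a description of counts and medians, and no test of the difference was possible. Under the 3 other scalings the respiratory chain median was 0.55 to 0.91 in pOC against BMM, 1.02 to 1.10 in mOCp against BMM and 0.09 to 0.49 in mOCp against pOC.

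Mitochondrial ribosomal proteins, 76 genes, had a median of 0.68 in pOC against BMM, but −0.30 in mOCp and −0.44 in mOCd against pOC. In the same comparisons 22, 0 and 0 of the 76 were higher (beside 11.1%, 8.78% and 10.8% of all genes) and 0, 3 and 5 were lower (beside 13.1%, 11.4% and 12.2%). The number higher in pOC against BMM was 13 under median and 29 under spike-in scaling. Spike-in scaling also gave 23 lower in mOCp and 21 lower in mOCd against pOC. The 303 other solute carriers had medians of 0.16, 0.03 and 0.09 in these comparisons. They were taken by symbols that begin with Slc and a number, which also takes in a few genes that are not carriers. Median scaling turned the sign of the first and last, to −0.03 and −0.03, and spike-in scaling that of the last 2, to −0.40 and −0.26. In pOC against BMM 17 of 104 eligible ones were higher (16.3%) and 18 lower (17.3%), beside 11.1% and 13.1% of all genes. Those counts were 13 and 22 under median scaling and 19 and 14 under spike-in scaling. In mOCd against pOC 20 of 104 were higher, beside 10.8% of all genes, and 3 were lower, beside 12.2%, but the counts were 16 and 9 under median scaling and 15 and 14 under spike-in scaling.

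**Figure D4:**
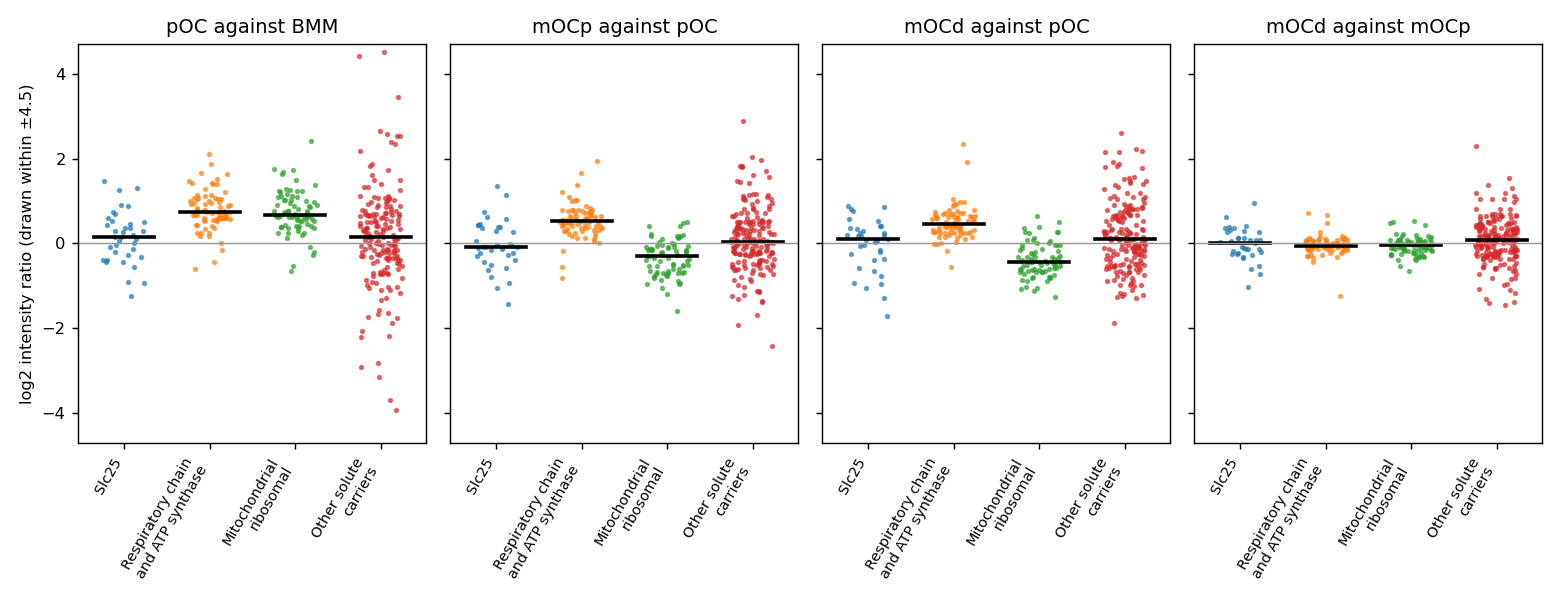
Log2 intensity ratio of each gene (points, drawn within ±4.5) in the 4 steps, for the Slc25 genes, the respiratory chain and ATP synthase, mitochondrial ribosomal proteins and other solute carriers, with the median as a bar (1 array per stage). In pOC against BMM the Slc25 median is 0.16 and the respiratory chain median 0.74, and in mOCd against mOCp all 4 medians lie between −0.05 and 0.09.

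Carriers reach the inner membrane through a dedicated import route, and 10 of its 13 genes read highest in pOC, as did 24.4% of all genes above the floor on every array. Tomm70a encodes the outer membrane receptor for carrier precursors, Tomm22 and Tomm40 the general import pore, the small Timm proteins the chaperones of the intermembrane space, and Timm22 the insertase of the inner membrane. All 13 had a positive log2 ratio in pOC against BMM (median 0.86), and Tomm70a, Tomm22, Tomm40, Timm8a1 and Timm10 were higher by at least 2-fold, beside 11.1% of all genes. Median scaling left 2 of these 13 genes higher and spike-in scaling gave 7. Tomm40 had 491 units in BMM and 1484 in pOC, then 734 in mOCp and 711 in mOCd, a 3.02-fold rise in pOC over BMM. In mOCp against pOC 4 were lower (Tomm40, Timm8a1, Timm9 and Timm22, median −0.42), and in mOCd against pOC 3 were (Tomm40, Timm8a1 and Timm9, median −0.43), beside 11.4% and 12.2% of all genes, and spike-in scaling gave 6 and 4.

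Regulators of mitochondrial biogenesis differed among themselves. Ppargc1b, the coactivator PGC-1β, had 27.8 units in BMM and 551 in pOC, then 593 in mOCp and 1156.5 in mOCd. It was 19.8-fold higher in pOC than in BMM, and Ppargc1a was at the floor on all arrays. Esrra, the estrogen-related receptor alpha with which these coactivators work, had 129.8 units in BMM and 320 in pOC, then 233 in mOCp and 267 in mOCd, 2.46-fold higher in pOC than in BMM. Gabpa and Nrf1 passed 2-fold in no comparison.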

How the data were processed

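Total RNA of 4 mouse cultures was hybridised to single-channel Affymetrix-style expression arrays, 1 array per stage, and the deposited values are linear signal intensities per probe set. Per the submitters' processing notes they come from MAS5, whose version and settings, like the genome build, are not stated in the sources used here. With 2% trimmed from each end, every array of the deposited table averages 100, so a stage with more mRNA in total would not show it. Background subtraction leaves dim values imprecise, and the number of arrays limits all precision.

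The 45101 probe sets include 64 controls, and 34945 others carry 1 gene symbol in a platform annotation of 2016. The 44 members had 93 such probe sets, 21 members with 1 each, and 1 further probe set that names Slc25a37 with another gene was not used. All 44 matched RefSeq (GRCm38.p6) by Entrez identifier with the same symbol.

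Ratios, floor and counting rule are as described with the results, and were computed with Python 3.11.15, numpy 2.4.6 and pandas 2.3.3. The rule was checked on simulated data with less noise than the SD between probe sets. That check gives no rate of false calls for these arrays. Values on all 4 arrays are given for counted members, for the 10 with the highest mean log2 intensity and for close paralogs. The members and all lists were chosen with earlier results of these data known. Alternatives were the floor at the 40th or 60th percentile, no minimum on the brighter value, 1.5-fold in place of 2-fold, 3 other scalings, the mean over probe sets, and leaving out suffixed probe sets. Protein sequences were not used here.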

Additional observations from a re-analysis of the deposited data

How the results depend on the processing

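No paired analysis was possible because each stage is 1 array and carries only 1 replicate number. Of 150 alternative values of the counts and medians, 107 stayed within 1.5 times the count or 1 SD of the median. At 1.5-fold in place of 2-fold, 6 members were higher and 3 lower in pOC against BMM, 3 higher and 5 lower in mOCp against pOC, 2 higher and 6 lower in mOCd against pOC, 1 higher and 2 lower in mOCd against mOCp, and 10 higher and 7 lower in mOCd against BMM. With no minimum on the brighter value, 2 were higher in mOCp against pOC and 1 was lower in mOCd against mOCp. Median scaling gave 3 lower in pOC against BMM, 4 lower in mOCd against pOC, 3 higher in mOCp against BMM, and 2 higher and 5 lower in mOCd against BMM. It turned the median log2 ratio of the members to −0.0362 in pOC against BMM, −0.0249 in mOCd against pOC, −0.0767 in mOCd against mOCp and −0.143 in mOCp against BMM. Quantile normalization gave 2 lower in pOC against BMM, 1 lower in mOCp against pOC and 3 higher in mOCp against BMM. Spike-in scaling gave 4 higher in pOC against BMM, 0 higher and 6 lower in mOCp against pOC, 6 lower in mOCd against pOC, 3 higher in mOCp against BMM and 2 higher in mOCd against BMM. It moved the median to −0.51 in mOCp against pOC, and turned it to −0.26 in mOCd against pOC and −0.19 in mOCp against BMM. The mean over probe sets gave 1 lower in mOCp against pOC and 1 in mOCd against pOC. Without suffixed probe sets 1 was higher in pOC against BMM, 1 lower in mOCp against pOC, 1 lower in mOCd against pOC, 2 higher in mOCp against BMM and 3 higher in mOCd against BMM, since Slc25a4 and Slc25a39 then have no probe set above the floor on any array, Slc25a37 has none at all and Slc25a3 rests on a dim one. That setting turned Slc25a3 to −0.65 in mOCp against BMM. The median in mOCd against BMM, −0.01, turned to 0.0370 with the floor at the 40th percentile, 0.0556 with quantile normalization and 0.0642 with the mean over probe sets. Shares of all genes are given below for median and spike-in scaling only. The counts under the other settings have no such share beside them, so they describe the setting and are not a result about the members. Beyond what is said here, the cause was not tested.

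Scaling also moved all genes. Under median scaling the median of all genes was −0.10 in pOC against BMM, −0.11 in mOCd against pOC, −0.17 in mOCp against BMM and −0.23 in mOCd against BMM. Under spike-in scaling it was 0.26, −0.34, −0.21 and −0.11 in the same comparisons and −0.42 in mOCp against pOC. The shares of all eligible genes higher and lower, 11.1% and 13.1% in pOC against BMM, became 8.12% and 16.8% under median scaling and 14.2% and 10.8% under spike-in scaling. In mOCp against pOC, 8.78% and 11.4% became 4.01% and 23.3% under spike-in scaling. In mOCd against pOC, 10.8% and 12.2% became 8.81% and 15.1% under median and 6.17% and 22.3% under spike-in scaling. In mOCd against mOCp, 2.2% and 2.55% became 1.61% and 3.33% and, under spike-in scaling, 2.82% and 2.11%. Against BMM, the shares in mOCp became 13.4% and 25% under median and 12.9% and 26.4% under spike-in scaling, and in mOCd 14.1% and 27.7%, and 15.6% and 24.5%.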

Other observations

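Of 7 measured genes of mitochondrial channels and carriers outside Slc25, 1 was higher in pOC than in BMM, Ppif (11.1% of all genes). Against BMM, 2 were higher in mOCp and in mOCd, Ppif and Vdac1 (16.8% and 18.8% of all genes). None was lower in any of the 6 comparisons. Ppif, which encodes cyclophilin D, a regulator of the permeability transition pore, had 90.4 units in BMM and 480 in pOC, then 269.5 in mOCp and 246 in mOCd, a 5.31-fold rise in pOC over BMM. Vdac1, the main anion channel of the outer membrane, had 2227 units in BMM and 3604 in pOC, then 4869 in mOCp and 4960 in mOCd, and was 2.19-fold and 2.23-fold higher in the mature cultures than in BMM. Both Vdac1 ratios fell short of 2-fold under median scaling and under spike-in scaling. Vdac3 had 1602 units in BMM and 1457 in pOC, then 1266 in mOCp and 1239 in mOCd and passed 2-fold in no comparison. Neither did Vdac2, Sfxn1, Mpc1, a subunit of the pyruvate carrier, or Mcu, the pore of the calcium uniporter. Sfxn1 came closest, 1.94-fold higher in pOC than in BMM.

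Mtch2, a relative of the carriers in the outer membrane, had 850.4 units in BMM and 1431.5 in pOC, then 1255 in mOCp and 1276 in mOCd. Ucp1, the uncoupling protein of brown fat, was at the floor on all 4 arrays. Ucp2 had no probe set with its symbol alone and was not analysed here.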
